A study of Homo sapiens with 8 samples.

Results

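The genes described here are markers of the integrated stress response and of the unfolded protein response of the endoplasmic reticulum, namely ATF4, DDIT3, ASNS, TRIB3, HSPA5 and HSP90B1. They were chosen by transcript identifier as 7 entries, with ENST00000175506 and ENST00000394308 both for ASNS, and all 7 were found among the 82586 entries of the deposited tables. The tables hold no gene names, so the names come from the list of identifiers by which the entries were chosen. The study profiled ribosome footprints, stretches of mRNA that a ribosome shields from digestion, in HEK293T cells and in transgenic cells, both without NAEK and with NAEK at 1 mM. HEK293T cells derive from human embryonic kidney and carry the SV40 large T antigen, and the transgenic cells are HEK293T cells stably transfected with Mb pyltRNA, the tRNA of a pyrrolysine system. The tables also hold entries for a pyrrolysyl-tRNA synthetase and a GFP39 transgene, which the labels do not list. Whether the transgenic line is 1 clone is not stated in the labels. There, a dedicated synthetase loads the tRNA with an amino acid added to the medium, here the azide-bearing lysine derivative NAEK, and the loaded tRNA reads the amber stop codon UAG. Each of the 4 groups had 2 libraries, and whether these came from separate cultures is not stated, so every p-value rests on a spread between libraries that may be technical.

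In the integrated stress response, kinases that sense amino acid shortage, misfolded protein, viral RNA or oxidative stress phosphorylate the initiation factor eIF2, which lowers translation in general and raises translation of ATF4 mRNA through short reading frames upstream of its coding region. ATF4, a bZIP transcription factor, then turns on genes of amino acid synthesis such as ASNS, together with DDIT3, which encodes the transcription factor CHOP, and TRIB3, a pseudokinase that restrains ATF4 activity. In the unfolded protein response, the sensors PERK, ATF6 and IRE1 react to unfolded protein in the endoplasmic reticulum and raise its chaperones, among them HSPA5 (BiP, an Hsp70 protein) and HSP90B1 (GRP94, an Hsp90 protein). The comparisons address whether the condition set up for decoding of stop codons goes with higher footprint density on these genes.

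The promoters of 3 of the genes are shown because they carry the elements through which the pathways are known to act on them. Each sequence is the 250 bases before the gene's RefSeq start in GRCh38.p14, 5′ to 3′ on the strand of the gene, taken at the farthest upstream start that the promoter table used here lists. Capitals mark the endoplasmic reticulum stress element, CCAAT and CCACG with 9 free bases between them, through which ATF6 acts, in HSPA5 (chr9:125241344-125241593, minus strand) and HSP90B1 (chr12:103930160-103930409, plus strand). In ASNS (chr7:97872409-97872658, minus strand) they mark the C/EBP-ATF element, TGATG and AA with 1 free base between them, to which ATF4 binds with a C/EBP partner.
HSPA5: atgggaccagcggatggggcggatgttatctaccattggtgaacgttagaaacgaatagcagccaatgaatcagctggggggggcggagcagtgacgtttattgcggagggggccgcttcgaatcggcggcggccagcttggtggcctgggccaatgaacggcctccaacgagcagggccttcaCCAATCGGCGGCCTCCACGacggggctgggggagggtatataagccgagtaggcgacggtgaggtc
HSP90B1: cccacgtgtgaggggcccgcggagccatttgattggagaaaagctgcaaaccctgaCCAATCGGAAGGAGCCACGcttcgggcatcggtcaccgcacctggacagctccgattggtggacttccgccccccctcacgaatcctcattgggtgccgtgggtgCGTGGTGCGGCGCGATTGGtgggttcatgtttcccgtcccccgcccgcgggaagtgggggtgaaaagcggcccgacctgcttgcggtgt
ASNS: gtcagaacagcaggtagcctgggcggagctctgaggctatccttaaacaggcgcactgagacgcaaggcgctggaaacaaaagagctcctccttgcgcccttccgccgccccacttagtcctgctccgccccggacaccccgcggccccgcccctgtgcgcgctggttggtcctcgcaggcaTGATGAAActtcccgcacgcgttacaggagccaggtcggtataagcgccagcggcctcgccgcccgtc
The ASNS window lies inside the RefSeq span of the gene (chr7:97851677-97928441, minus strand), so transcripts that start further upstream have another promoter. RefSeq places ATF4 at chr22:39520559-39522686, DDIT3 at chr12:57516588-57520517 and TRIB3 at chr20:380760-397559 in the same build, and the TRIB3 window searched also lies inside its span. Both strands were searched. HSPA5 held 1 match to the stress element, at positions -66 to -48 counted from the start, and HSP90B1 held 2, at -194 to -176 on the strand of the gene and at -89 to -71 on the opposite strand. The element occurred in 21 of 27305 RefSeq promoters of the same length, or 0.0769%. It was defined on chaperone promoters of this kind, so its presence here is background and not a result. ASNS held 1 match to the C/EBP-ATF element, at -68 to -61, and 872 promoters (3.19%) held one. ATF4, DDIT3 and TRIB3 had no exact match to either motif in this window. The shorter stress element, ATTGG and CCACG with 1 free base between them, matched none of the 6 promoters (0.0549% of all promoters). Only exact matches in this window were counted, so a gene without a match may still hold an element with a variant base, outside the window or at another start.

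Libraries held 12923243 to 20569590 reads, of which 88.96 to 89.14% lay in coding regions. Values are RPKM, which scale footprint reads to region length and library size, and the whole reads behind them were recovered from the values. Between replicates, Pearson's r of log2(RPKM + 1) across coding regions, which are not independent replicates, was 0.980 to 0.985. The synthetase transgene stood at 5538 to 5820 RPKM in the 4 transgenic libraries and at 7.24 to 11.4 RPKM in the 4 HEK293T libraries, and the GFP39 transgene at 3664 to 6980 and 8.15 to 21.7 RPKM. The labels name only the tRNA, which was not measured here, and the synthetase and GFP39 are known from the tables' own entries. No mRNA abundance was used here, so more mRNA and more ribosomes on each mRNA cannot be told apart, and neither can a change in all cells and a change in some.

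The genes spanned a wide range of footprint density. HSP90B1 and HSPA5 were among the most heavily occupied coding regions, at a mean of 492 and 421 RPKM over the 8 libraries, ranks 261 and 336 of 82586. HSP90B1 stood above HSPA5 in each of the 8 libraries, with a ratio of 1.02 to 1.41. ATF4 (8.86 RPKM) and the ASNS entries ENST00000394308 (8.93 RPKM) and ENST00000175506 (8.71 RPKM) came next and overlapped over libraries. TRIB3 stood at 2.71 RPKM and DDIT3 at 0.962 RPKM. DDIT3 lay under the minimum of a mean of 1 RPKM for the test, so 6 of the 7 entries were tested. How reads shared by isoforms were assigned is unknown here, so an entry can hold only part of its gene's reads. This bears on ASNS. Both of its entries have a recovered coding length of 1686 nt, and ENST00000394308 took 48.3 to 54.0% of their joint reads in each library.

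**Figure D1:**
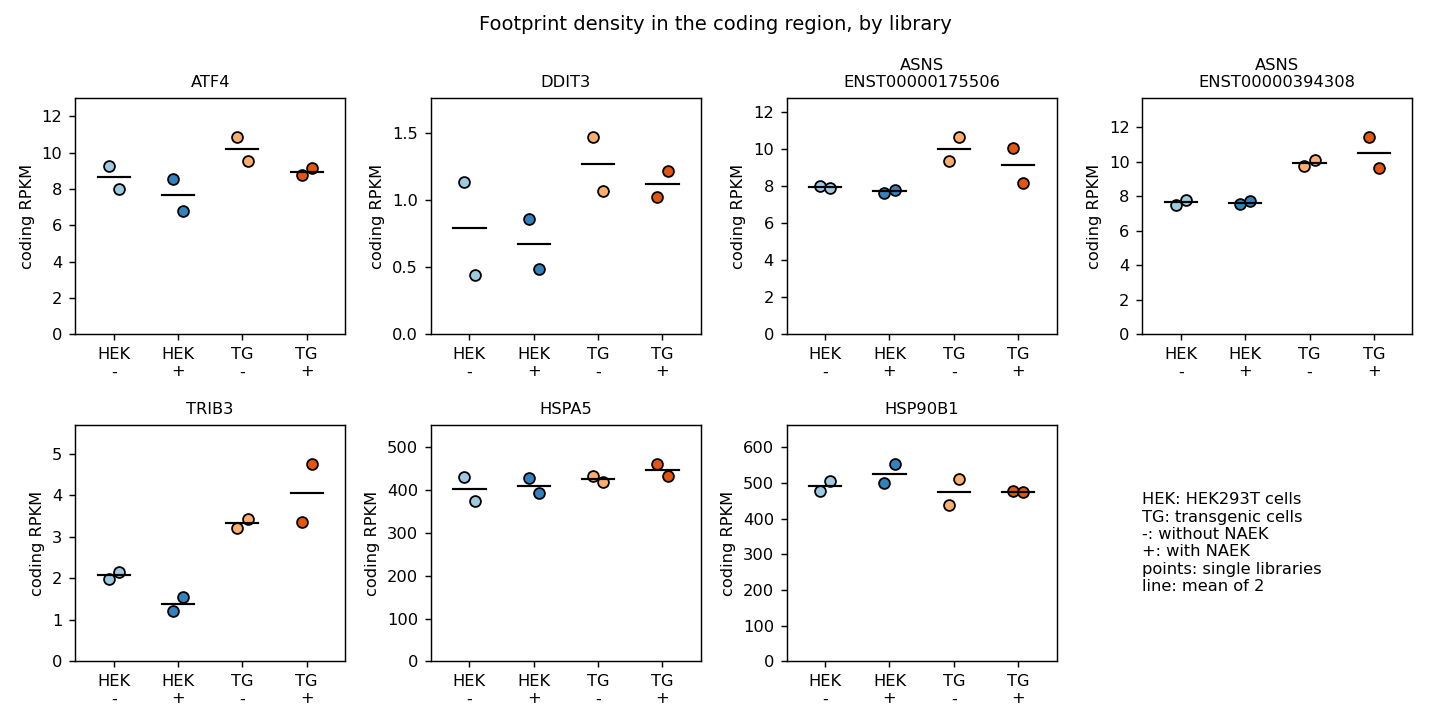
Coding RPKM of the 7 entries (vertical axes from 0, a separate scale for each entry) in the 4 groups, with a point for each library and a line for the mean of 2. All 4 transgenic libraries lie above all 4 HEK293T libraries for TRIB3 and for both ASNS entries, while ATF4, DDIT3, HSPA5 and HSP90B1 overlap between the lines. Over all regions tested, 5.78% lay above in this way and 7.98% below.

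NAEK in transgenic cells, the condition set up for decoding of the amber codon, went with no called difference in any of the 6 entries tested. How far the amber codon was decoded over all transcripts was not tested here. limma on log2(RPKM + 1) over all 46156 coding regions with a mean of at least 1 RPKM called 0 of the 6 at an adjusted p under 0.05, and 0 of the 6 had an unadjusted p under 0.05. Over all regions it called 0 (0%), with 2739 at an unadjusted p under 0.05 against 2308 from chance, while limma-voom on recovered reads called 9, none of them among the 6 entries. The median difference of the 6 entries was 0.04 on the log2 scale, and that of all regions tested was 0.04. Intervals below are 95% intervals from the same fit.

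The chaperones gave the narrowest of these intervals. HSPA5 (ENST00000324460), the chaperone that holds the stress sensors inactive until unfolded protein draws it away, had 433 and 419 RPKM without NAEK and 460 and 433 RPKM with NAEK in transgenic cells. The groups overlapped, with a log2 difference of 0.07 (interval -0.16 to 0.29, limma adjusted p = 0.966). HSP90B1 (ENST00000299767), which folds client receptors and secreted proteins, had 440 and 511 RPKM without NAEK and 477 and 474 RPKM with it. Both libraries with NAEK lay between those without it, with a log2 difference of 0.00 (interval -0.23 to 0.24, limma adjusted p = 0.998).

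For ATF4 and its targets no difference was called either, within wider intervals. ATF4 (ENST00000337304) had 10.8 and 9.54 RPKM without NAEK and 8.75 and 9.16 RPKM with it, on 199, 185, 159 and 125 reads. Both libraries with NAEK were the lower ones, as was so for 13.1% of all regions tested, while both were the higher ones in 23.9%. The log2 difference of -0.17 (interval -0.51 to 0.17, limma adjusted p = 0.942) did not pass. ASNS, which makes asparagine from aspartate and glutamine, had 9.38 and 10.7 RPKM without NAEK and 10.1 and 8.22 RPKM with it in ENST00000175506. In ENST00000394308 it had 9.76 and 10.1 RPKM without NAEK and 11.4 and 9.64 RPKM with it. The groups overlapped in both entries, with log2 differences of -0.12 (interval -0.43 to 0.19, limma adjusted p = 0.953) and 0.07 (interval -0.21 to 0.36, limma adjusted p = 0.973). TRIB3 (ENST00000217233) had 3.21 and 3.44 RPKM without NAEK and 3.34 and 4.74 RPKM with it, on 60, 68, 62 and 66 reads. The second library with NAEK was the highest of all 8, the first lay between those without NAEK, and the log2 difference of 0.21 (interval -0.20 to 0.62, limma adjusted p = 0.934) did not pass. DDIT3 (ENST00000346473) had 1.47 and 1.07 RPKM without NAEK (13 and 10 reads) and 1.03 and 1.21 RPKM with NAEK (9 and 8 reads). Exact Clopper-Pearson intervals at 95% of single libraries ran from 0.781 to 2.51 RPKM in the highest of these and from 0.469 to 1.95 RPKM in the lowest, so only a large difference was detectable at this depth.

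In HEK293T cells, which carry no tRNA transgene by their labels, NAEK also went with no called difference. limma called 0 of the 6 entries and 0 of 46156 regions (0%), and limma-voom called 0 entries and 1 region. At an unadjusted p under 0.05 in limma there were 0 entries and 1392 regions, against 2308 regions from chance. TRIB3 had 1.99 and 2.16 RPKM without NAEK and 1.22 and 1.55 RPKM with it, on 37, 41, 27 and 27 reads. Both libraries with NAEK were the lower ones, as was so for 10.5% of all regions tested (both higher in 15.7%), and the log2 difference of -0.37 (interval -0.78 to 0.04, limma adjusted p = 1.0) did not pass. ATF4 had 9.27 and 8.003 RPKM without NAEK and 8.56 and 6.78 RPKM with it, a log2 difference of -0.16 (interval -0.50 to 0.18, limma adjusted p = 1.0). HSPA5 had 430 and 375 RPKM without NAEK and 428 and 393 RPKM with it (log2 difference 0.03, interval -0.20 to 0.26, limma adjusted p = 1.0). HSP90B1 had 477 and 507 RPKM without NAEK and 499 and 553 RPKM with it (log2 difference 0.09, interval -0.14 to 0.33, limma adjusted p = 1.0). Libraries with and without NAEK overlapped in ATF4, HSPA5 and HSP90B1. The ASNS entries differed by -0.04 and 0.00 on the log2 scale.

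**Figure D2:**
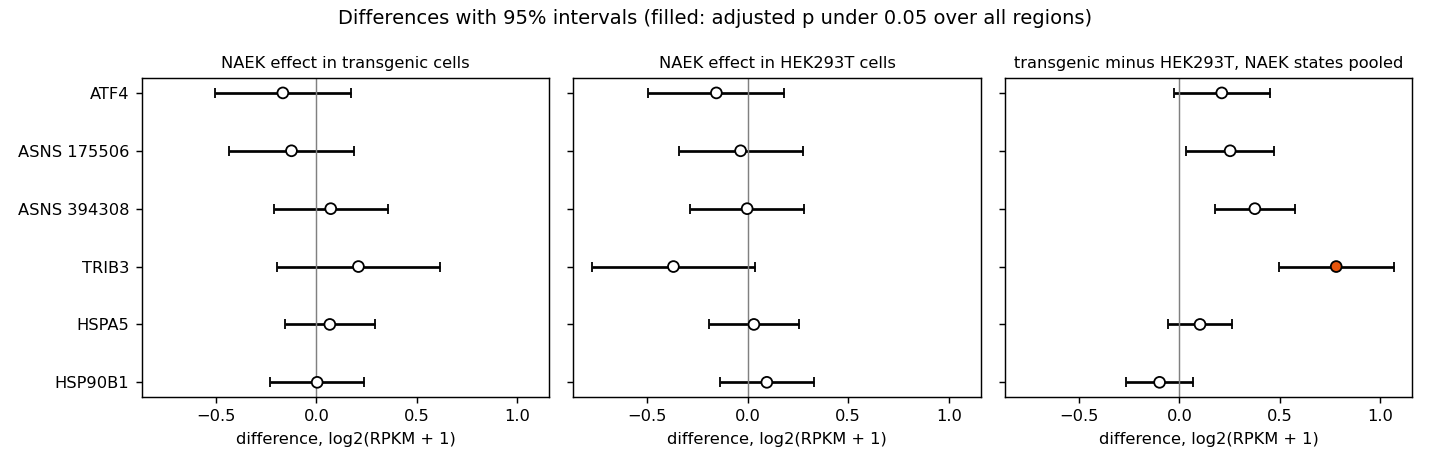
Differences on the log2(RPKM + 1) scale (horizontal axes) with 95% intervals from limma for the 6 entries tested, for NAEK in transgenic cells, NAEK in HEK293T cells and the difference between lines. Every interval for NAEK includes 0, and TRIB3 in the comparison of lines, at 0.78, is the only filled point, which marks an adjusted p under 0.05.

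Between the lines 1 of the genes passed the test. With both NAEK states pooled, 4 transgenic against 4 HEK293T libraries, TRIB3 was higher in transgenic cells, at 3.68 ± 0.713 against 1.73 ± 0.427 RPKM (SD, n = 4). All 4 transgenic libraries stood above all 4 HEK293T libraries, as was so for 5.78% of all regions tested (below in 7.98%). TRIB3 had 60 to 68 against 27 to 41 reads a library, and the ratio of its means was 2.13. The difference on the log2(RPKM + 1) scale, which understates changes of low values, was 0.78 (interval 0.49 to 1.07, limma adjusted p = 0.0321). TRIB3 was the 1 called of 6 entries, where 838 of 46156 regions (1.82%) were called, 303 (0.656%) higher in transgenic cells and 535 (1.16%) lower. Its difference was at or above that of 99.7% of the 10096 regions with a mean of 2 to 4 RPKM. The call rests on all 8 libraries and on the filter. Without any 1 library the limma adjusted p lay between 0.0531 and 0.108, with a difference of 0.68 to 0.88, and with no filter on low values it was 0.0662. The 838 calls over all regions fell to between 7 and 444 without any 1 library and lay between 220 and 3270 under the other alternatives.

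TRIB3 was higher in transgenic cells at each NAEK state, though neither difference passed alone. Without NAEK the ratio of means was 1.60 and the log2 difference 0.49 (interval 0.08 to 0.90, limma adjusted p = 0.422). With NAEK the ratio was 2.92 and the log2 difference 1.07 (interval 0.66 to 1.48, limma adjusted p = 0.0936). In these comparisons 3 (0.0065%) and 6 (0.013%) of 46156 regions were called, and limma-voom called TRIB3 with NAEK, with an adjusted p of 0.00753. Whether NAEK acts unlike in the lines was tested by the interaction, which was 0.58 for TRIB3 (interval 0.01 to 1.15, unadjusted p = 0.0483 by limma) and did not pass (limma adjusted p = 1.0). No region passed for the interaction, 0 of 46156 (0%) by limma and 0 by limma-voom. In limma 1764 regions had an unadjusted p under 0.05, fewer than the 2308 from chance. Neither NAEK difference of TRIB3 passed within a line, and the one in transgenic cells was 0.0083 without the second library with NAEK and 0.41 without the first.

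ASNS stood higher in transgenic cells too, without a call. ENST00000394308 had 7.49 to 7.80 RPKM in HEK293T and 9.64 to 11.4 RPKM in transgenic libraries, a ratio of means of 1.34. Its log2 difference of 0.38 (interval 0.18 to 0.58) did not pass (limma adjusted p = 0.0728), and it did under limma-voom, with an adjusted p of 0.0136. ENST00000175506 had 7.67 to 8.01 RPKM in HEK293T and 8.22 to 10.7 RPKM in transgenic libraries, a ratio of 1.22 (log2 difference 0.25, interval 0.03 to 0.47, limma adjusted p = 0.193). Neither entry overlapped between the lines. With the entries summed, a choice made after seeing the data, ASNS had 15.5 ± 0.213 RPKM in HEK293T and 19.8 ± 1.63 RPKM in transgenic libraries (SD, n = 4). The log2 difference was then 0.33 (interval 0.14 to 0.53, limma adjusted p = 0.0860). Over all regions tested, the 4 transgenic libraries stood above the 4 HEK293T libraries in 5.78% and below them in 7.98%, and 3 of the 6 entries tested, TRIB3 and both of ASNS, stood above.

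ATF4 and DDIT3, the genes here that encode transcription factors, overlapped between the lines. ATF4 had 8.15 ± 1.05 RPKM in HEK293T and 9.57 ± 0.906 RPKM in transgenic cells (SD, n = 4), a log2 difference of 0.21 (interval -0.03 to 0.45, limma adjusted p = 0.304). DDIT3 had 0.731 ± 0.328 and 1.19 ± 0.199 RPKM (SD, n = 4), on 27 and 40 reads in all. With no filter on low values its log2 difference was 0.36 (limma adjusted p = 0.325). Both factors were thus higher on average in transgenic cells by less than the test could tell from the spread between libraries.

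The chaperones of the endoplasmic reticulum differed little between lines and in opposite directions. HSPA5 had 407 ± 26.9 RPKM in HEK293T and 436 ± 17.2 RPKM in transgenic cells (SD, n = 4), a log2 difference of 0.10 (interval -0.06 to 0.26, limma adjusted p = 0.450). HSP90B1 had 509 ± 31.9 and 475 ± 28.9 RPKM (SD, n = 4), a log2 difference of -0.10 (interval -0.26 to 0.07, limma adjusted p = 0.491). Libraries of the lines overlapped for both genes. The median difference of the 6 entries between lines was 0.23 on the log2 scale against 0.00 over all regions tested, and 5 of the 6 were above 0, with HSP90B1 the exception. The ASNS entries can share reads and are not independent in this count.

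**Figure D3:**
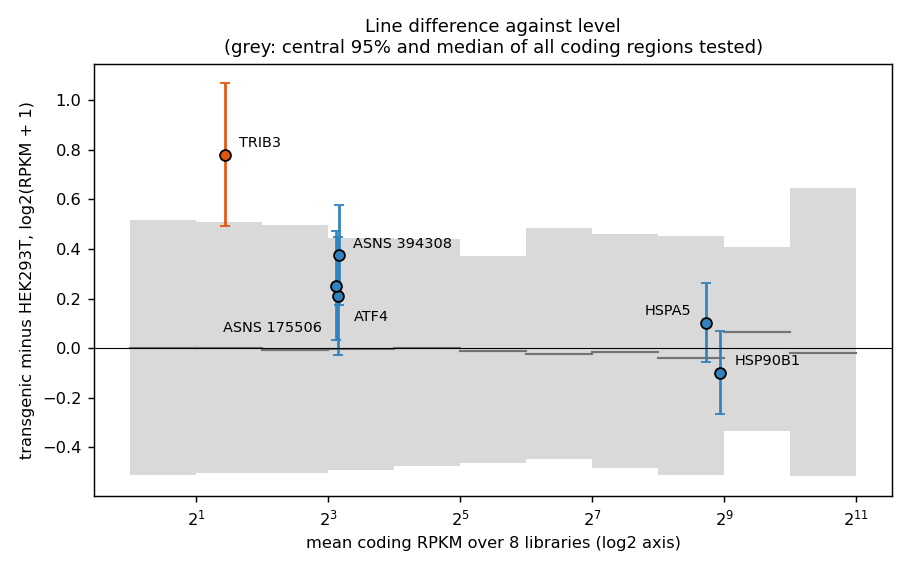
Difference between lines (vertical axis, log2(RPKM + 1), transgenic minus HEK293T) against the mean coding RPKM of each entry (horizontal log2 axis), with 95% intervals. Grey bands hold the central 95% of all regions tested in each class of level, the last one covering 1024 RPKM and above, with their median as a line. TRIB3, at 0.78, lies above the band of its class, which ends at 0.51, and the other 5 entries lie inside theirs.

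After their stop codons the genes had few reads in either line, at most 22 in the first extended region over all 8 libraries. The tables give a first and a second extended region, read here as the stretches after the stop codon and after the next one, since no source used here defines them. How reads at the edge of a region were assigned is unknown here, and which stop codon each gene carries was not looked up. TRIB3 had 0 reads in its first extended region in all 8 libraries, so the length of this region could not be recovered. In its first extended region each ASNS entry had 1 read in all, ATF4 had 5 and DDIT3 had 6. Relative to coding density, these few reads of ATF4 came to 6.95 ± 8.05% in the HEK293T line and 9.68 ± 13.1% in the transgenic line (SD, n = 4). For DDIT3, whose coding region itself held 4 to 13 reads a library, they came to 30.0 ± 34.7% and 17.6 ± 24.0% (SD, n = 4). Both genes had 0 such reads in 2 of the 4 libraries of each line, so a difference between the lines was not detectable at this depth. Second extended regions held 1 read in TRIB3 and 2 in HSP90B1, all from transgenic libraries and too few to compare the lines. HSP90B1 had 6 reads in HEK293T and 6 in transgenic libraries over 93 nt, at 0.176 ± 0.157% and 0.200 ± 0.150% of its coding density (SD, n = 4; exact permutation p = 0.886). The 15 nt of HSPA5 held 4, 1, 5 and 0 reads in HEK293T libraries, and 3, 1, 3 and 5 in transgenic ones. That was 2.10 ± 1.89% and 3.002 ± 2.13% of its coding density (SD, n = 4; exact permutation p = 0.629), and libraries of the lines overlapped. In transgenic cells the density after the HSPA5 stop codon was 1.76 ± 1.27% of the coding density without NAEK and 4.24 ± 2.43% with it (SD, n = 2), again with overlap. With 2 libraries against 2 the smallest two-sided exact permutation p is 0.333, so this comparison could not pass and its p is not read.

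The second extended region of HSPA5, 42 nt long, held reads in every transgenic library and in no HEK293T library. The share of all second extended regions with this pattern was not counted, so how common it is among thin regions is unknown here. Over all second extended regions together, the share of a library's reads was 1.06 to 1.15% in HEK293T and 1.01 to 1.05% in transgenic libraries. In the HSPA5 region, transgenic libraries without NAEK held 3 and 1 reads and those with NAEK 2 and 3. That is 9 in all, against 0 in the 4 HEK293T libraries. Over summed reads the density was 0.746% of the coding density in transgenic cells. The 3 reads that a count of 0 allows over the 4 HEK293T libraries would be 0.245%. The transgenic value was 3.05-fold this floor, a ratio that leaves out the counting error of its own 9 reads and is no lower bound. By library it was 0.784 ± 0.420% in transgenic cells (SD, n = 4; exact two-sided permutation p = 0.0286, the smallest that 4 libraries against 4 allow). After Benjamini-Hochberg adjustment over the 8 regions with reads on entries with a mean of at least 1 RPKM, it did not pass (adjusted exact permutation p = 0.229). A single region among 8 could not have passed, since 0.229 is the lowest that the adjustment allows for it. Transgenic libraries with and without NAEK overlapped, and a test of 2 libraries against 2 could not have shown a difference, since its smallest two-sided exact permutation p is 0.333.

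**Figure D4:**
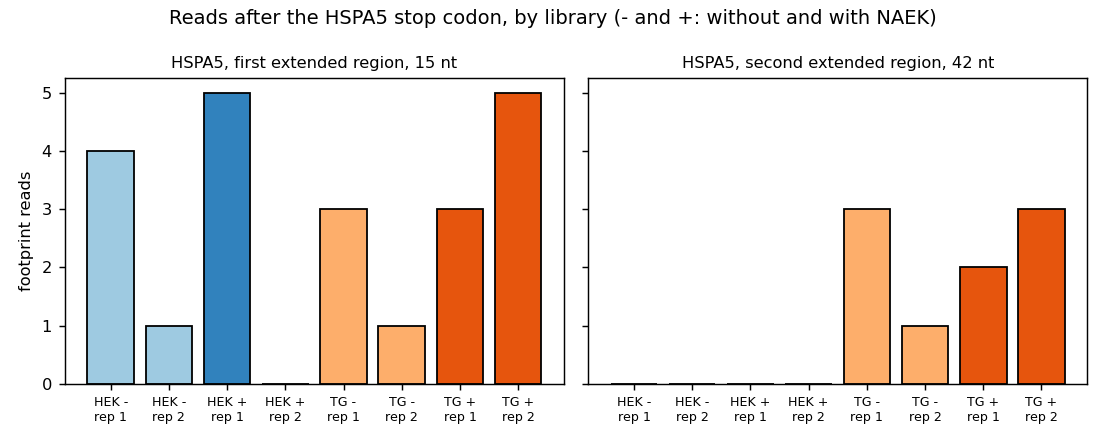
Footprint reads (vertical axis, from 0) in the first and second extended regions of HSPA5 in each of the 8 libraries. The first region holds 0 to 5 reads with overlap between lines, and the second holds 1 to 3 reads in each transgenic library and 0 in each HEK293T library.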

How the data were processed

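Ribosome footprints were profiled with the TruSeq Ribo Profile kit, per the labels' protocols. The submitters' processing notes name Bowtie 1.2.2 and hg38. The authors deposited RPKM, per the file headers, for the coding and 2 extended regions of each transcript. Annotation, read length filter and isoform handling are unknown here. Groups and replicates follow the names of tables and columns.

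Whole reads and region lengths were recovered from the RPKM through the synthetase entry, whose name gives its length, and 100% of values above 0 came out whole within 0.001 reads. Recovered lengths and reads of thin regions can fall short of the true ones. They served for depth, intervals (exact Clopper-Pearson, 95%) and alternatives. Intervals and floors cover counting error only.

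The test was limma 3.58.1 (R 4.3.3) on log2(RPKM + 1) over all 8 libraries, by group and with a variance trend, for 46156 coding regions with a mean of at least 1 RPKM and 6 contrasts, with Benjamini-Hochberg adjustment over all regions of a contrast and a threshold of 0.05. Extended regions were compared as percent of coding density by exact two-sided permutation tests. Recovery and fit were tested on simulated data. Alternatives were the pseudocount, the filter, 2 other normalizations, no variance trend, the libraries compared alone, a replicate block, leaving out each library and limma-voom on recovered reads. Python 3.11.15, scipy 1.17.1 and statsmodels 0.14.6 did the rest.

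All 7 entries were named by rule. The members and lists were chosen with earlier results of these data known. Wider lists of stress genes were fixed by symbol, but no table used here pairs symbols with these transcripts, so they were not used. Promoters and gene positions come from RefSeq, build GRCh38.p14, and all 6 genes matched by symbol.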

Additional observations from a re-analysis of the deposited data

How the results depend on the processing

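The TRIB3 difference between lines stayed above 0 under all 16 alternatives. It kept its call under 7, and lost it with no filter on low values (0.78, limma adjusted p = 0.0662) and without any 1 library (0.68 to 0.88). With pseudocounts of 0.1 and 5 it was 1.06 and 0.37, both called. TRIB3 with NAEK was called under the replicate block (1.07) and limma-voom (1.51), and ASNS ENST00000394308 between lines under the replicate block (0.38, limma adjusted p = 0.0484) and limma-voom (0.42). The cause was not tested. Replicates of equal number deviated together with correlations of 0.05 to 0.32 between groups, 1 of 6 under 0.1, so the numbers were not taken as pairs.

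Counts of called regions moved with settings. NAEK in transgenic cells gave 1 with no filter, 7 with the replicate block and 9 under limma-voom, and NAEK in HEK293T cells 1 with no filter and 1 under limma-voom. Between lines without NAEK there were 23 with no filter, 8 at a mean of at least 10 RPKM, 6 with the replicate block and 345 under limma-voom. With NAEK there were 3, 186, 263 and 931 under the same settings, 10 after quantile normalization, and 2 to 6 when 1 library was left out. With NAEK states pooled there were 297, 1356, 2664 and 3270, 220 with no variance trend, and 7 to 444 when any 1 library was left out.

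Of 624 pairs of a member comparison and an alternative, 588 kept direction and side of the threshold, and 23 changed sign, all of differences not called. These were HSP90B1 for NAEK in transgenic cells under median centring (-0.055), the ASNS entry ENST00000394308 summed with the other, an alternative chosen after seeing the data, for NAEK in transgenic cells (-0.025) and the interaction (-0.0034), and otherwise values without 1 library. The latter ran, for NAEK in transgenic cells, from -0.26 to 0.0080 in ASNS ENST00000175506, -0.039 to 0.18 in ENST00000394308 and -0.10 to 0.11 in HSP90B1. For NAEK in HEK293T cells they ran from -0.030 to 0.023 in ENST00000394308 and -0.067 to 0.13 in HSPA5. Between lines without NAEK they ran from -0.013 to 0.18 in HSPA5 and -0.16 to 0.054 in HSP90B1. For the interaction they ran from -0.16 to 0.14 in ATF4, -0.22 to 0.044 in ENST00000175506, -0.036 to 0.19 in ENST00000394308, -0.061 to 0.13 in HSPA5 and -0.20 to 0.017 in HSP90B1. Differences between lines in first extended density, in percentage points, ran from -3.26 to 5.96 in ATF4, -0.080 to 1.62 in HSPA5 and -0.035 to 0.091 in HSP90B1. At a mean of at least 10 RPKM, ATF4, ASNS and TRIB3 could not be tested. DDIT3 and the extended regions are limited by depth.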
